A study of Homo sapiens with 12 samples.

Results

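The genes described here were 10 secreted signalling proteins, namely the interleukins IL1A, IL1B, IL6 and IL11, the related cytokine LIF, the CXC chemokines CXCL1, CXCL2, CXCL3 and CXCL8, and the CC chemokine CCL2. They were found among the 59248 rows of the gene tables by their Ensembl identifiers, and each symbol matched 1 row. Their names were chosen from the measured values of this contrast, sh1 against shNC, so their differences between the groups, and whether the fit over all genes called them, are given as a description and not as evidence. The study compared SJSA-1 cells, an established human osteosarcoma line, that stably carried a scramble shRNA (shNC) with SJSA-1 cells that stably carried a RUNX2 shRNA (sh1). RUNX2 is a transcription factor that drives osteoblast differentiation. The question was which transcripts differ when it is silenced. Both shRNAs were expressed from the lentiviral vector GV248 under the U6 promoter, and both populations were selected with puromycin, so that the vector, EGFP and the selection were shared. Each group had 6 libraries of poly(A) RNA and rested on 1 shRNA, and nothing in the labels ties the libraries to separate infections, so the spread between libraries may be partly technical.

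Interleukin-1 alpha and interleukin-1 beta bind the same receptor and activate NF-kappaB and AP-1 through the adaptor MYD88 and the IRAK kinases. IL6, IL11 and LIF signal through receptors that share the gp130 subunit (IL6ST) and through JAK kinases to STAT3, and in bone they act on osteoblasts and osteoclasts. CXCL1, CXCL2, CXCL3 and CXCL8 attract neutrophils through CXCR1 and CXCR2, and CCL2 attracts monocytes through CCR2. In many cell types these genes are induced together by inflammatory stimuli, through kappaB, AP-1 and C/EBP elements next to their start sites, and their mRNAs are short-lived because of AU-rich elements in their 3′ UTRs.

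The summed gene counts were 15328312 to 19992974 in the shNC libraries and 11239638 to 16346022 in the sh1 libraries, with the lowest total in sh1 replicate 3. RUNX2, the silenced gene, stood at 39.8 ± 4.31 CPM in shNC (CPM are counts scaled to a common library size) and at 24.6 ± 1.95 in sh1 (mean ± SD, n = 6), and every sh1 library was below every shNC library. Its log2 fold change was -0.69 (edgeR adjusted p = 4.606e-06), so RUNX2 mRNA was reduced but present. RUNX1 and RUNX3 did not pass in edgeR (adjusted p = 0.1 and 0.2232), although RUNX1 (-0.14) passed without sh1 replicate 6 and RUNX3 (0.34) without shNC replicate 4. Their DNA-binding partner CBFB was higher by 0.24 (adjusted p = 0.0032). Of 14 osteoblast and mesenchymal markers, 10 were expressed highly enough to be tested, with SPARC at 1446 CPM in shNC and 2286 in sh1 and VIM at 1383 and 1270, while the osteoblast markers ALPL, SP7, IBSP and BGLAP had 0 to 13 counts over the 12 libraries. BGLAP shares 40.9% of its exonic bases with PMF1-BGLAP on the same strand, so its count may be understated. The epithelial keratins KRT8 and KRT18 were also present, at 246 and 161 CPM in shNC, while EPCAM and CDH1 had 17 and 0 counts in all. The bone matrix genes SPP1 and COL1A1 were expressed at a low level. SPP1 was at 6.47 CPM in shNC and 5.69 in sh1, and COL1A1 at 5.83 and 16.3 (log2 fold change 1.49, edgeR adjusted p = 2.321e-05). The other collagen genes of the list are not given here. The whole list summed to 3368 to 3558 CPM in shNC and 4089 to 4781 in sh1.

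The start sites of the genes were compared first. Windows of 250 bases before the RefSeq start (GRCh38.p14) were matched for 8 of the 10 genes, and those of LIF and CCL2 were not analysed here. IL1A had windows at separate RefSeq starts and was counted once, with a match in any of them. The windows of IL1B and CXCL8, the members with the largest decreases, are shown up to the first annotated exon, with a C/EBP match (TTGCNNAA, either strand) in capitals for IL1B, and an AP-1 match (TGANTCA) followed by a kappaB core (GGAATTTCC) in capitals for CXCL8. The IL1B window lies at chr2:112836817-112837029 on the minus strand and the CXCL8 window at chr4:73740319-73740518 on the plus strand, each read 5′ to 3′ toward its gene.
IL1B: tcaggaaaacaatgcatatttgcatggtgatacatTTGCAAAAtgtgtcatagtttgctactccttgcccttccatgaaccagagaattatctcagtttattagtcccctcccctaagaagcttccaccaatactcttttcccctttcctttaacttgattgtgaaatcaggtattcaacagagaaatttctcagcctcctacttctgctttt
CXCL8: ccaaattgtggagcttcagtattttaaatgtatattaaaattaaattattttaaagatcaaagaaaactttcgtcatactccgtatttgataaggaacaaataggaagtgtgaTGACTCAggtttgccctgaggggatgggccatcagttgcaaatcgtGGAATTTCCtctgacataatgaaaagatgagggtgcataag

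The kappaB sites of the chemokine genes and IL6 are set side by side in 30-base stretches, in which capitals mark the kappaB match, so that the sites of expressed and nearly silent members can be compared. They lie at chr4:73740468-73740497 for CXCL8, chr4:73869305-73869334 for CXCL1, chr4:74038748-74038777 for CXCL3, chr4:74099253-74099282 for CXCL2 and chr7:22727117-22727146 for IL6. CXCL3 and CXCL2 lie on the minus strand and the others on the plus strand.
CXCL8: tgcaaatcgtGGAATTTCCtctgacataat
CXCL1: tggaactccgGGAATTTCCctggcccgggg
CXCL3: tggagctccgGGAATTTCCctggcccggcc
CXCL2: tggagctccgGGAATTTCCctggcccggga
IL6: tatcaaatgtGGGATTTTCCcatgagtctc

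The core GGAATTTCC began 78 bases before the start of CXCL1 and CXCL3, 77 before that of CXCL2 and 91 before that of CXCL8. It occurred in the windows of 4 of the 8 members, counted by gene, and in 0.417% of 34788 distinct RefSeq windows of the same length. This core was chosen after the windows had been read, so its share is a description. The longer kappaB consensus, which the CXCL8 site does not meet, was found for 4 of the 8 members (CXCL1, CXCL2, CXCL3 and IL6) and in 9.96% of all windows. AP-1 matches were found in IL1A, CXCL8 and IL11 (6.59% of all windows), and C/EBP matches in IL1B, CXCL2 and IL6 (9.05%). A RUNX match (TGTGGT, either strand) was found for 0 of the 8 members and in 10.97% of all windows, which says only that these letters are not in these 250 bases. The windows of CXCL1 and CXCL3 were 81.4% identical and those of CXCL1 and CXCL2 68.0%. For CXCL8 only the 200 bases before its first annotated exon were compared with the 250-base windows of the other 3. These were 36.8% to 42.7% identical. The shorter length lowers this share, so it cannot be set directly against the shares above.

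IL1B was the member with the largest decrease. Its gene lies at chr2:112829751-112836816 on the minus strand of GRCh38, and its product is the secreted form of interleukin-1, which caspase-1 cleaves before release. In the shNC libraries IL1B ranged from 214.7 to 356.6 CPM with a median of 292.4, and in the sh1 libraries from 66.3 to 103.6 with a median of 79.2. The groups did not overlap. The highest sh1 library was replicate 3, and the lowest shNC library was replicate 1. The fitted level in shNC was 3.57 times that in sh1, the log2 fold change was -1.84 (SE 0.12), and it ranged from -1.91 to -1.76 over 24 other ways of processing the data.

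CXCL8, interleukin-8, lies at chr4:73740519-73743716 on the plus strand. It ranged from 93.4 to 191.6 CPM with a median of 136.4 in shNC, and from 37.5 to 62.9 with a median of 40.6 in sh1. Here too the groups did not overlap, and sh1 replicate 3 was again the highest of its group. The fitted level in shNC was 3.08 times that in sh1 (log2 fold change -1.62, SE 0.14, and -1.73 to -1.49 over the 24 alternatives). By the order of fold changes from the most negative, IL1B was at rank 17 and CXCL8 at rank 32 of 16489 genes tested.

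**Figure D1:**
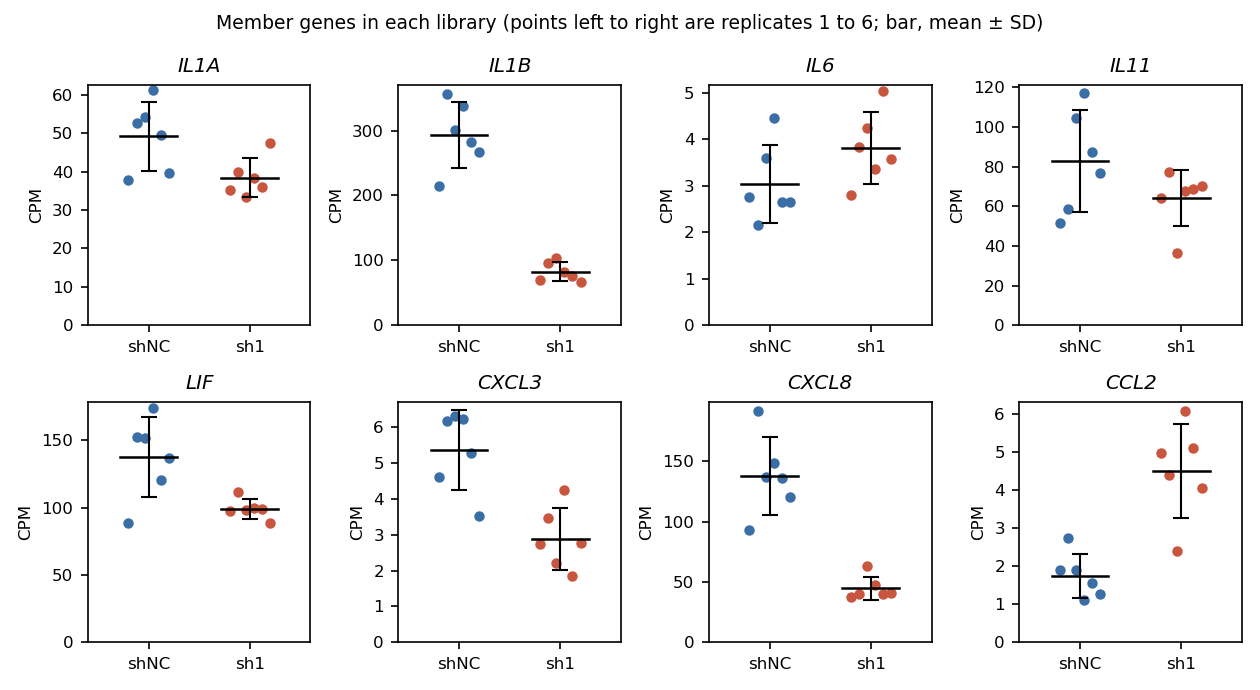
CPM of the 8 members that were expressed highly enough to be tested, with 1 point per library (6 per group), and the mean ± SD as bars. IL1B and CXCL8 are lower in all 6 sh1 libraries than in any shNC library, CCL2 is higher in 5 of 6, and the groups of the other 5 genes overlap.

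CXCL3 (chr4:74036589-74038807, minus strand) was the only GRO chemokine with a measurable level. It stood at 3.52 to 6.31 CPM in shNC with a median of 5.72, and at 1.85 to 4.23 in sh1 with a median of 2.76. Of the sh1 libraries, 5 were below the lowest shNC library and replicate 4 was above it. The log2 fold change was -0.88 (SE 0.19), and -0.56 on the log2(FPKM + 1) scale, which understates changes of low genes.

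CXCL1 and CXCL2, which encode close relatives of CXCL3, were at or near 0. CXCL1 (chr4:73869393-73871308, plus strand) had 0 counts in every shNC library, which at 3 counts allows a level of up to 0.15 to 0.196 CPM per library. In sh1 it had 0, 0, 2, 1, 3 and 1 counts in replicates 1 to 6. CXCL2 (chr4:74097040-74099196, minus strand) had 1 count in shNC replicate 1 and 0 in the other shNC libraries, and 1 count each in sh1 replicates 2, 5 and 6. No library held more than 3 counts of either gene, so no fold change was calculated. The transcripts of CXCL1 and CXCL2 are 83.4% identical, but of all 75-base stretches of the CXCL1, CXCL2 and CXCL3 transcripts only 0.273%, 2.50% and 2.30% also occur in a transcript of another gene.

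CCL2 (chr17:34255274-34257208, plus strand) went in the other direction from a low level. It ranged from 1.1 to 2.74 CPM with a median of 1.73 in shNC, and from 2.39 to 6.06 with a median of 4.68 in sh1. All sh1 libraries except replicate 3 were above the highest shNC library. The fitted level in sh1 was 2.57 times that in shNC (log2 fold change 1.36, SE 0.22), and without sh1 replicate 3 the log2 fold change was 1.48. On the log2(FPKM + 1) scale it was 0.79.

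IL1A encodes interleukin-1 alpha, which is active without cleavage and acts largely as a cell-bound or released alarm signal (chr2:112773925-112784493, minus strand). It ranged from 37.8 to 61.3 CPM with a median of 51.2 in shNC, and from 33.4 to 47.6 with a median of 37.2 in sh1. The groups overlapped, with 3 sh1 libraries below the lowest shNC library. The log2 fold change was -0.36 (SE 0.11), and IL1A was called in 15 of the 24 alternatives. It was no longer called without any 1 of shNC replicates 2 (-0.33), 3 (-0.32) and 4 (-0.27) or sh1 replicates 1 (-0.32), 3 (-0.31) and 5 (-0.33), nor in any of the 3 limma fits on FPKM (-0.33 to -0.32). IL1A and IL1B lie next to each other, and the sh1 mean was 28.1% of the shNC mean for IL1B and 78.1% for IL1A.

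LIF, leukemia inhibitory factor (chr22:30240453-30246759, minus strand), ranged from 88.9 to 174.2 CPM with a median of 144.2 in shNC. In sh1 it ranged from 88.3 to 111.5 with a median of 98.7. The sh1 libraries lay close together (SD 7.39) against 29.7 in shNC, and shNC replicate 1 lay within the sh1 range. The log2 fold change was -0.47 (SE 0.11), and it was called in 23 of the 24 alternatives. LIF shares 86 and 83 exonic bases with the opposite-strand genes LIF-AS1 and LIF-AS2, and the library kit does not keep strand.

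IL11 (chr19:55364382-55370463, minus strand) is a gp130 cytokine that promotes osteoclast formation. It ranged from 51.3 to 117.4 CPM with a median of 82.3 in shNC and from 36.5 to 77.2 with a median of 68.2 in sh1. Only sh1 replicate 3 was below all shNC libraries. The log2 fold change was -0.36 (SE 0.18) and it was not called, but it was called without shNC replicate 1 (-0.47) and with no filter (-0.37). It was -0.23 without shNC replicate 4 and -0.24 without sh1 replicate 3.

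IL6 (chr7:22725884-22732002, plus strand) was low in both groups. It ranged from 2.16 to 4.47 CPM with a median of 2.7 in shNC and from 2.81 to 5.04 with a median of 3.71 in sh1. The groups overlapped over most of their range, and only sh1 replicate 5 was above all shNC libraries. The log2 fold change was 0.32 (SE 0.18) and was not called, but it was called without shNC replicate 4 (0.47). IL6 shares 428 exonic bases with IL6-AS1 and 46 with STEAP1B, both on the opposite strand.

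Of the 10 members, 8 were expressed highly enough to be tested, and of these 5 were called lower (IL1A, IL1B, LIF, CXCL3 and CXCL8), 1 was called higher (CCL2) and 2 were not called (IL6 and IL11). A call is a Benjamini-Hochberg adjusted p under 0.05 in edgeR's quasi-likelihood test over all genes, and 13.3% of the 16489 genes tested were called lower and 12.8% higher. For IL1B and CXCL8 every sh1 library was below every shNC library, as for 6.08% of all genes tested. No member had every sh1 library above every shNC library, which 5.84% of all genes tested had. Because the members were chosen on this contrast, nothing is read from these counts. In bulk RNA, fewer cells that make a transcript and less of it per cell cannot be told apart. The summed level of the 10 members was 495.4 to 850.2 CPM in shNC and 314.3 to 377.1 in sh1.

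Levels of different genes were compared per length, as FPKM. In shNC the order was IL1B (94.2 ± 17.6 FPKM), CXCL8 (60.3 ± 14.9), LIF (34.5 ± 7.95), IL11 (30.8 ± 9.84), IL1A (23.0 ± 4.47), CXCL3 (2.39 ± 0.519), IL6 (1.46 ± 0.417) and CCL2 (0.870 ± 0.296; SD, n = 6). IL1B was above CXCL8, and CXCL8 above LIF, in 6 of 6 libraries, although the ranges of these neighbours overlapped. LIF and IL11 were not ordered, with LIF higher in 3 of 6 libraries. A gap without overlap separated IL1A from CXCL3. IL1B was above 98.1% of all genes tested in FPKM, CXCL8 above 96.6%, and CCL2 above 19.7%.

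In sh1 the members from IL1B to IL1A lay close together. IL1B was at 26.7 ± 4.82 FPKM, LIF at 25.0 ± 1.8, IL11 at 24.1 ± 5.29, CXCL8 at 19.8 ± 4.21 and IL1A at 18.2 ± 2.4. The ranges of all neighbours in this order overlapped, and IL1B was above LIF in 3 of 6 libraries and CXCL8 above IL1A in 3 of 6. Below them came CCL2 (2.27 ± 0.622), IL6 (1.85 ± 0.373) and CXCL3 (1.3 ± 0.384). By group means, CCL2 had thus moved from the lowest to the highest of these 3 low members, and CXCL3 from the highest to the lowest. The ranges of neighbours among them overlapped in both groups. In sh1 CCL2 was above IL6, and IL6 above CXCL3, in 5 of 6 libraries.

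**Figure D2:**
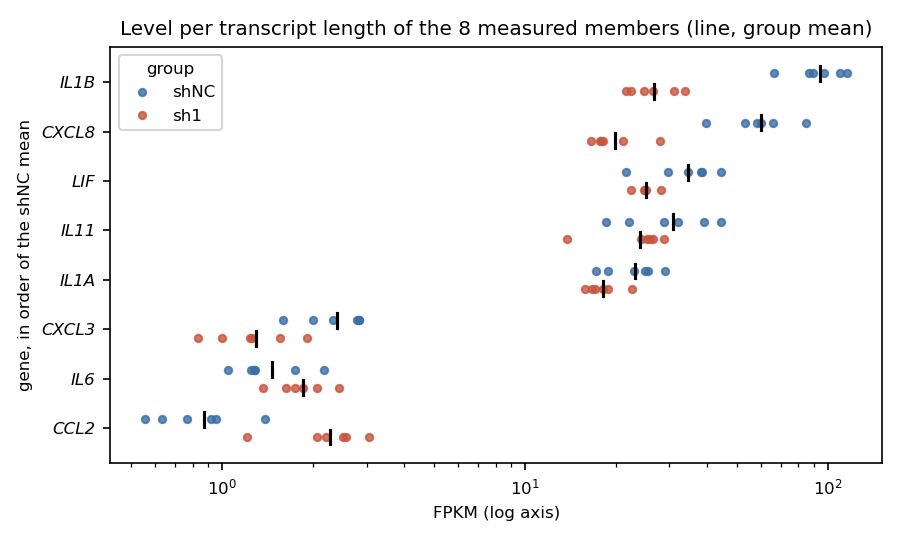
FPKM of the 8 measured members on a log axis, with 1 point per library and a line at the mean of each group of 6. In shNC the means run from 94.2 for IL1B to 0.870 for CCL2, and in sh1 the 5 abundant members lie within 18.2 to 26.7.

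The spread of the members within a group was not used to choose them. It was large for their abundance, with a biological coefficient of variation from 0.133 for IL1A to 0.221 for IL11 and CCL2. The medians of the 500 genes closest to each in mean level were 0.0846 for IL1A, 0.0778 for IL11 and 0.136 for CCL2. IL11 and CXCL8 varied more than 99.4% of such genes, LIF more than 98.2% and IL1B more than 98.0%. For the low members IL6, CXCL3 and CCL2 the shares were 84.6%, 88.0% and 94.4%. In shNC, replicate 1 was the lowest library for 5 of the 8 members (IL1A, IL1B, IL11, LIF and CXCL8), and replicate 4 was the highest for 4 (IL1A, IL6, IL11 and LIF). In sh1, replicate 3 was the lowest for IL1A, IL11 and CCL2 and the highest for IL1B and CXCL8. This library also had the smallest total and 1.23% of its counts in entries without an Ensembl identifier, against 0.468% to 0.531% in the other sh1 libraries, and the part of this in its member values was not tested.

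Whether members varied together was examined with each library's log2 CPM minus the mean of its group, which leaves out the difference between sh1 and shNC. IL1B and CXCL8 varied together over the 12 libraries (r = 0.844, permutation p = 0.0013, adjusted over 28 pairs 0.0329, two-sided). The rank correlation was rho = 0.818 (permutation p = 0.0028, adjusted 0.0784). Within shNC r was 0.964 and within sh1 0.701, and without the 2 libraries farthest from the IL1B median it was 0.694. In sh1 the largest deviations of both genes were those of replicate 3 (0.35 for IL1B and 0.51 for CXCL8). The value within sh1 thus leans on this library, and r within sh1 without it was not calculated. IL1B and LIF followed (r = 0.761, permutation p = 0.00235, adjusted 0.0329, and rho = 0.699, permutation p = 0.0109, adjusted 0.102), with 0.909 in shNC and 0.68 in sh1 and 0.796 without the 2 farthest libraries. The rank correlations of both pairs therefore did not pass the adjustment.

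None of the other 26 pairs passed the adjustment. Of all 28 pairs, 22 were positive, with a median r of 0.322, while the median r of a member with all other tested genes was between -0.02 and 0.02. CCL2 was the exception among the members, since its median r with the other 7 was -0.12. IL1A and IL1B were correlated at 0.864 in shNC and at -0.476 in sh1 (0.329 over both, permutation p = 0.326, adjusted 0.628), and this difference between the groups was not tested. With the replicate number as a block, 14 of 28 pairs were positive.

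**Figure D3:**
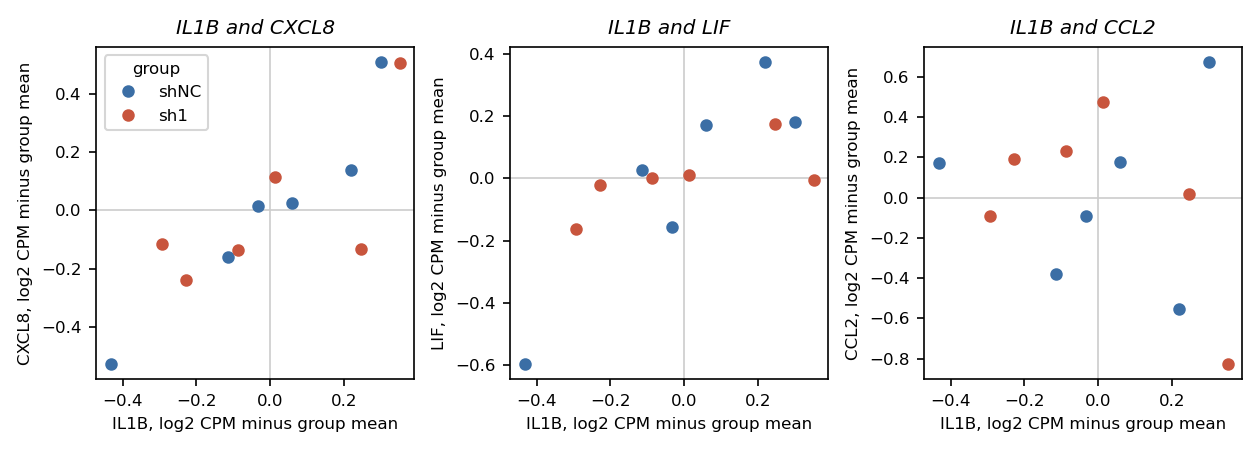
Deviation of each library's log2 CPM from its group mean for IL1B (horizontal) against CXCL8, LIF and CCL2 (vertical), with 6 shNC and 6 sh1 libraries. IL1B and CXCL8 rise together (r = 0.844), IL1B and LIF likewise (r = 0.761), and IL1B and CCL2 show no such relation (r = -0.221).

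The genes whose deviations were most like those of IL1B and CXCL8 were taken from 12641 tested genes with a symbol and a mean log2 CPM of at least 1. For IL1B they were APCDD1L-DT (r = 0.97), ETV3 (0.96), YRDC (0.94), BFAR (0.94) and HIVEP1 (0.93). For CXCL8 they were SPAG9 (0.95), ZNF562 (0.94), IFIT3 (0.94), CDC37L1 (0.93) and DDX39B (0.92). All values are over 12 libraries and are the highest of many, so they are given without a test. Between sh1 and shNC their log2 fold changes ran from -0.20 for APCDD1L-DT to 0.22 for HIVEP1. BFAR (0.17, adjusted p = 0.01885) and HIVEP1 (adjusted p = 0.04127) were called higher in edgeR, and the other 8 did not pass. HIVEP1 was called in 14 of 24 alternatives and was lost without any 1 of shNC replicates 1, 3 and 6 or sh1 replicates 2, 3, 4 and 5 (0.18 to 0.24), and BFAR was lost with no filter (0.16). Without shNC replicate 2, IFIT3 (0.33) and DDX39B (0.20) were called.

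IL1A and IL1B lie in the interleukin-1 cluster of 2q14 and the 4 CXC members in the chemokine cluster of 4q13. In 2q14 the genes beyond IL1B were nearly silent, with 38 counts in the 6 shNC and 7 in the 6 sh1 libraries for IL37, 28 and 11 for IL36G, and 1 and 6 for IL1RN, the gene of the interleukin-1 receptor antagonist. On the other side SLC20A1, a phosphate transporter, was lower in sh1 by 0.29 on the log2 scale (edgeR adjusted p = 0.0001472). Its lowest coordinate lies 128 kb from the lowest coordinate of IL1A. CKAP2L, TTL, POLR1B and CHCHD5 did not pass (-0.18 to 0.01).

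In 4q13, CXCL6, PF4 and PF4V1 had 0 counts in all libraries, PPBP had 12 in shNC and 2 in sh1, and CXCL5 had 40 and 30. The tested gene next to the chemokines, MTHFD2L, which encodes a mitochondrial folate enzyme, was lower by 0.37 (edgeR adjusted p = 0.004331). Its start lies 374 kb from the start of CXCL8. CXCL8 and CXCL3 were thus the measurable chemokine genes of this cluster, at 60.3 and 2.39 FPKM in shNC.

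**Figure D4:**
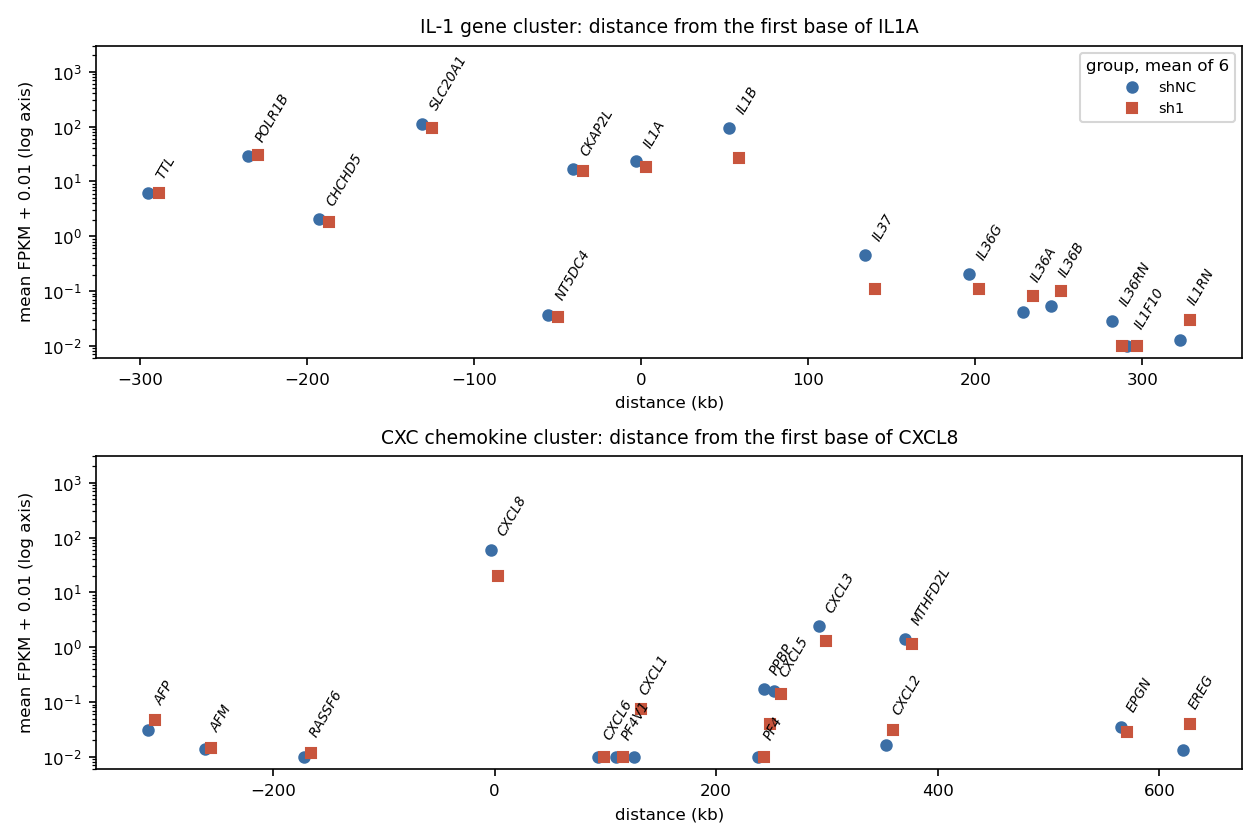
Mean FPKM plus 0.01 (log axis) of the protein-coding genes around the members, with circles for shNC and squares for sh1 (means of 6). Distances in kb run from the lowest coordinate of IL1A (top) or CXCL8 (bottom) to the lowest coordinate of each gene. In each cluster the gap between circle and square is widest for IL1B and CXCL8 among the genes above 1 FPKM.

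The AU-rich elements of the members were counted in the 3′ UTRs of their GENCODE v44 canonical transcripts. All 10 members held the pentamer ATTTA, from 1 copy in CCL2 to 10 in CXCL2, against a median of 2 copies in 12660 tested genes with an annotated 3′ UTR. IL1B had 6 copies in 610 bases and CXCL8 had 9 in 1252, where genes of like length had medians of 1 and 2. LIF had 7 copies in 3198 bases, which equals the median of genes of like length. The nonamer TTATTTANN, with A or T in the last 2 positions, was present in 8 members, and in 22.6% of those genes. It was not found in IL6 or CCL2. The members with positive fold changes, IL6 and CCL2, had 14.1 and 2.66 copies of the pentamer per kb, and IL1B and CXCL8 had 9.84 and 7.19.

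The surroundings of the members in the network of cytokines were described with 8 lists of 198 genes, of which 108 were tested. Of these, 23 were called higher (21.3%) and 13 lower (12.04%), against 12.78% and 13.31% of all genes tested. The count of lower genes was thus near the share over all genes. The median log2 fold change was 0.04, against 0.00 for all genes tested. The counts of each list below stand beside the same 12.78% higher and 13.31% lower, and most lists are small. The lists are given by their counts and medians and were not tested as sets.

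Of 50 other interleukins and colony-stimulating factors, 13 were tested, 4 were called higher and 2 lower, with a median of 0.06. CSF1, which drives macrophage and osteoclast formation, rose from 82.3 to 118.6 CPM in shNC to 153.0 to 206.4 in sh1 (log2 fold change 0.76, adjusted p = 6.307e-06). IL32 rose by 0.80 (adjusted p = 2.644e-05) and the low-level IL17D by 0.93 (adjusted p = 0.0103). IL17D shares 36.3% of its exonic bases with another gene on the opposite strand. IL24, an IL-10 family cytokine, was the most abundant ligand of the list and fell from 119.8 to 68.4 FPKM (log2 fold change -0.82, adjusted p = 0.0003325), with 4 of 6 sh1 libraries below the lowest shNC library. IL24 shares 41.6% of its exonic bases with FCMR on the opposite strand. Of 41 other chemokines 38 were too low to test. CCL5 rose from 3.18 to 5.74 CPM in shNC to 5.93 to 7.52 in sh1 (0.70, adjusted p = 0.0006859), and CCL20 (0.01) and CXCL16 (0.33) did not pass.

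Among 16 receptors of the members and related receptors, 10 were tested, 5 were called higher and 1 lower, with a median of 0.22. The related receptors, such as OSMR, a partner of gp130, and ACKR4, are not receptors of a member. The 4 higher receptors named here, which had the smallest p-values of the list in edgeR, were parts of gp130 and interleukin-1 receptors. The remaining receptor called higher is not named. OSMR rose by 0.44 (adjusted p = 0.0001706), the interleukin-11 receptor IL11RA by 0.71 (0.001751), the LIF receptor LIFR by 0.35 (0.002239) and the signalling receptor IL1R1 by 0.60 (0.004102), all edgeR adjusted p. IL11RA shares 32.5% of its exonic bases with another gene on the same strand. The common subunit IL6ST was the most abundant, at 68.5 FPKM in shNC and 76.7 in sh1, and did not pass (0.15, adjusted p = 0.07966), although it passed without shNC replicate 3 (0.18) or 4 (0.18). The chemokine receptors CXCR1, CXCR2 and CCR2 had 1, 39 and 3 counts over the 12 libraries. SIGIRR, a negative regulator of interleukin-1 signalling, was the receptor called lower (-0.33, adjusted p = 0.04302).

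Of 17 genes of interleukin-1 processing and release, 14 were tested, and the median was 0.03. Higher were the inflammasome sensor NLRP1 (0.32, adjusted p = 0.001816) and CASP1 (0.47, adjusted p = 0.004393), the protease that cleaves interleukin-1 beta. The sensor AIM2 did not pass (0.45, adjusted p = 0.06998), but it was called in 6 of 24 alternatives, among them those without shNC replicates 3 (0.56) and 4 (0.59) and sh1 replicates 1 (0.54) and 2 (0.53). CASP1 stood at 5.06 to 6.79 CPM in shNC and 6.73 to 9.55 in sh1, the opposite direction from IL1B. The adaptor PYCARD had 9 counts over the 12 libraries. PYCARD shares 59.7% of its exonic bases with PYCARD-AS1 on the opposite strand, so its count may be understated. S100A13, a copper-binding export factor of interleukin-1 alpha, was called lower (-0.34, adjusted p = 0.03253), a call lost without any 1 of shNC replicates 2, 3, 5 and 6 or sh1 replicates 3, 4, 5 and 6 (-0.34 to -0.27).

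Of 29 genes from the interleukin-1 receptor to NF-kappaB, 27 were tested, 3 were called higher and 4 lower, and the median was 0.01. NFKBIZ, a nuclear IkappaB protein that is a cofactor for a subset of NF-kappaB target genes, was at 24.4 to 29.1 CPM in shNC and 17.1 to 21.7 in sh1 (-0.47, adjusted p = 8.616e-05). The kinase gene CHUK (IKK alpha) was lower by 0.37 (log2 fold change -0.37, adjusted p = 9.449e-05). TAB2 (0.35, adjusted p = 0.0004584) and the kinase gene IRAK2 (0.58, adjusted p = 0.0007254) were higher without overlap. The most abundant gene of the list, IRAK1, did not pass (-0.01, adjusted p = 0.9088). The subunit genes NFKB1 (0.08), RELA (0.08) and REL (0.01) did not pass. The subunit genes NFKB2 and RELB are not given here, and not all genes called in this list are named. MYD88 had 53 counts over the 12 libraries and was too low to test.

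The 14 genes of gp130, JAK and STAT3 signalling had 11 tested members, of which 3 were called higher and none was lower (median 0.04). STAT3, the main transcription factor downstream of gp130, was at 149.5 to 172.7 CPM in shNC and 212.4 to 222.4 in sh1 (0.46, adjusted p = 9.057e-07). PIAS3, an inhibitor of STAT3, was higher by 0.52 (adjusted p = 2.406e-05). JAK1 was called higher (0.13, adjusted p = 0.03366), a call lost without any 1 of shNC replicates 1, 5 and 6 or sh1 replicate 5 (0.12 to 0.13). SOCS3, a feedback target of this pathway, did not pass (-0.14, adjusted p = 0.2664).

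Of 15 C/EBP and AP-1 genes, 14 were tested, 3 were called higher and 1 lower (median 0.06). FOSL2 was higher by 0.35 (adjusted p = 0.001462), as were JUN (0.26, adjusted p = 0.01934) and ATF2 (0.15, adjusted p = 0.02767). The ATF2 call was lost without shNC replicate 1 (0.13) or sh1 replicates 4 (0.14) and 5 (0.15). CEBPB, whose product binds C/EBP elements, was lower (-0.46, adjusted p = 0.02197), a call lost without any 1 of shNC replicates 2 (-0.36) and 5 (-0.42) or sh1 replicates 1 (-0.41), 3 (-0.39) and 6 (-0.40). Whether it binds the match printed for IL1B was not tested. FOSL1 was the most abundant of the list at 131 FPKM in shNC and did not pass (0.07).

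All 16 binders and decay factors of AU-rich mRNAs were tested, with 2 called higher and 4 lower (median -0.06). CNOT7, a deadenylase subunit, was lower by 0.32 on the log2 scale (adjusted p = 0.001047), as were ZFP36L2 (-0.36, adjusted p = 0.004468), KHSRP (-0.24, adjusted p = 0.007861) and HNRNPD (-0.28, adjusted p = 0.01783), whose products bind AU-rich elements. ZFP36 (-0.11) and the abundant PABPC1 (-0.08) did not pass. The 2 genes called higher are not named here, so the genes named show only the lower side of this list.

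**Figure D5:**
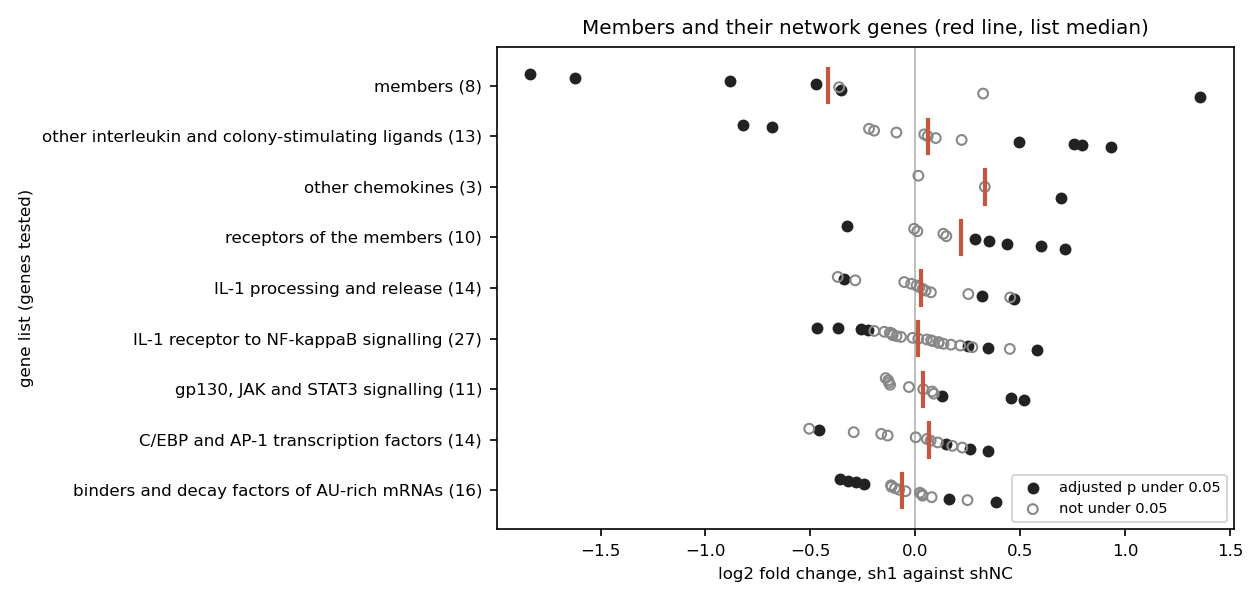
Log2 fold change (sh1 against shNC) of each tested gene in the 8 network lists and of the members, with filled points for adjusted p under 0.05 and a red line at each list's median. The members have a median of -0.42, and the medians of the other lists run from -0.06 to 0.33.

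Markers of other cell types were set beside the members because leukocytes are a main source of IL1B, CXCL8 and CCL2 in tissue. Of 15 leukocyte markers 11 were too low to test, and the pan-leukocyte gene PTPRC had 6 counts over the 12 libraries. Among the untested markers, CD68 shares 81.6% of its exonic bases with another gene on the same strand. LYZ shares 34.7% with another gene on the opposite strand. The counts of CD68 and LYZ, and the sum of the list, may therefore be understated. The summed level of the list was 6.9 to 10.2 CPM in shNC and 11.6 to 13.5 in sh1, against 495.4 to 850.2 and 314.3 to 377.1 for the members. The 4 tested markers moved in both directions, with ITGAM (1.02, adjusted p = 0.01299) higher and CD163 (-1.15, adjusted p = 0.004605) and FCER1G (-1.42, adjusted p = 0.0004165) lower in edgeR. CSF1R, the receptor of CSF1, was at 3.66 to 5.5 CPM in shNC and 8.57 to 10.4 in sh1 (1.08, adjusted p = 2.568e-06). Its part in the higher CCL2 values was not tested. The endothelial list summed to 4.2 to 7.51 CPM in shNC and 3.83 to 6.86 in sh1, and the epithelial list, nearly all KRT8 and KRT18, to 376.3 to 468.6 and 424.1 to 583.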

How the data were processed

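Poly(A) RNA of SJSA-1 cells was sequenced in 6 shNC and 6 sh1 libraries. Per the study's methods, the authors mapped clean read pairs to GRCh38 with HISAT2 and counted genes with featureCounts. Neither program versions nor a strand setting were stated. The deposited files hold whole-number counts per gene, a signal table in which the authors scaled those counts by DESeq2 size factors, and FPKM that the authors calculated from the counts. No library or column was left out. The counts were filtered with edgeR's filterByExpr, scaled by TMM, and compared with edgeR 4.0.16 (quasi-likelihood test, R 4.3.3) over 16489 genes, with Benjamini-Hochberg adjustment over all of them. CPM use TMM library sizes. Entries without an Ensembl identifier, which carry a name of the authors' own (0.468% to 1.23% of counts per library), stayed in the table and its totals. Of 58676 Ensembl identifiers, 58207 matched a symbol in GENCODE v44. Within-group correlations used log2 CPM (prior count 2) minus group means and 100000 permutations. Alternatives were other scalings, the authors' size factors, other filters, robust dispersion, a replicate block, DESeq2 1.42.0, limma 3.58.1 on log2(FPKM + 1) and log2(FPKM + 0.1), and leaving out each library. The fit was also run on simulated counts. These were drawn for all genes at the common biological coefficient of variation of 0.106, below the 0.133 to 0.221 of the members, so the run does not bear on the members. A count of 0 allows up to 3 counts per library, and such limits cover counting error only.

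The tests rest on the spread between libraries, which may be technical. The members, lists and tests were chosen with earlier results of these data known. Beside the members and the RUNX family, the named genes were up to 4 per list with the smallest p-value, the most abundant of each list, the 5 genes most like IL1B and CXCL8, and the tested neighbours in the 2 clusters; other genes were named after their values were seen. Promoter windows are from RefSeq (GRCh38.p14), and 3′ UTRs from GENCODE v44.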

Additional observations from a re-analysis of the deposited data

Results flagged for a closer look

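Single libraries far from the rest of their group, judged by the gap to the next library over the group's range, numbered 9 among 140 groups checked. Chance flags about 1 in 20 groups, or 7 here. In sh1 replicate 3, IL11 stood at 36.5 CPM, while the remaining sh1 libraries had 64.3 to 77.2. The total gene count of the same library was 11239638, against 14689309 to 16346022. It also held DDX39B at 142.1 CPM (121.8 to 127.4 in the others) and IL1R1 at 7.07 (4.71 to 5.48). CSF1 was at 206.4 CPM in sh1 replicate 1 (153.0 to 169.0), IL11RA at 4.14 in sh1 replicate 5 (3.15 to 3.46) and IL6ST at 804.0 in sh1 replicate 6 (673.4 to 714.4). In shNC, STAT3 was at 172.7 CPM in replicate 4 (149.5 to 157.1) and IFIT3 at 33.1 in replicate 2 (16.5 to 22.02).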

How the results depend on the processing

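The members called lower numbered 5, 4 to 6 with 1 library left out and 3 with the unfiltered limma fit on log2(FPKM + 1). Network genes called lower numbered 13, 9 to 14 with 1 library left out and 8 with the same limma fit. Network genes called higher numbered 23, and 20 to 29 with 1 library left out. All genes called numbered 4302, 3471 to 4646 with 1 library left out, 3381 with the replicate block and 2942 with that limma fit. Positive member pairs numbered 22, 20 to 23 with 1 library left out and 14 with the replicate block. Same-numbered libraries did not vary together (r = -0.162 to 0.0334), and the labels state no pairing, so the main fit did not pair them. These correlations cannot show whether same-numbered libraries were prepared together. The members were chosen on this contrast, so their calls under other settings are no support for them. LIF and IL1A were not called in the unfiltered limma fit, and IL1A was not called in the filtered ones. The unfiltered fit also ended the calls of CEBPB (-0.42), IL1R1 (0.24), JUN (0.26), HNRNPD (-0.26) MTHFD2L (-0.19), S100A13 (-0.25) and HIVEP1 (0.19). Without a filter in edgeR, S100A13 (-0.34), JAK1 (0.12), ATF2 (0.14) and BFAR were not called and AIM2 (0.45) was. With the replicate block, S100A13 (-0.34), JAK1 (0.13) and ATF2 (0.14) were not called and AIM2 (0.46) and APCDD1L-DT (-0.20) were. No result changed sign among those called. Genes at a few counts, such as CXCL1 and CXCL2, are limited by depth.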
